A study of Mus musculus with 15 samples.

Results

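The 38 genes described here encode enzymes that break down amino acids, together with Etnppl, a lyase of phosphoethanolamine. They were chosen by gene symbol, with earlier results of these data known. Every symbol was found once its Ensembl identifier was looked up among the 56953 genes of each library. All 38 passed the filter on low counts, which left 17975 genes for testing. They were grouped by route into tyrosine (4 genes), tryptophan (6), histidine (4), serine and glycine (5), methyl-glycines and methionine (8), lysine (1), proline (3), branched-chain amino acids (3), and aminotransferases with Etnppl (4).

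The RNA came from primary mouse hepatocytes. The 15 libraries were labelled ΔEGFR with carbon tetrachloride (CCl4) in 4 cases, ΔEGFR with mineral oil in 4, wild type (WT) with CCl4 in 3, and WT with mineral oil in 4. CCl4 is a liver toxin that hepatocytes convert to a reactive radical, and mineral oil is the usual carrier. In the published mouse line called ΔEGFR, hepatocytes express a shortened epidermal growth factor receptor without its kinase part. The labels used here give no promoter, strain, sex, age, dose or length of treatment, and they name no animal, and the spread on which the p-values rest is therefore that between libraries, which may be technical. The transgene itself was not analysed here, since the values are per mouse gene.

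The liver is the main site at which most amino acids are degraded. A typical route removes the amino group by transfer, oxidation or elimination, opens or oxidises the carbon skeleton, and delivers the products to the citric acid cycle, to glucose or to ketone bodies. Glycine, the methyl-glycines, serine and methionine are linked through one-carbon units and S-adenosylmethionine, the methyl donor of the cell. Many of these enzymes are made almost only in hepatocytes, are induced by glucagon, glucocorticoids or a protein-rich diet, and differ between the periportal and pericentral parts of the lobule.

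Library totals ran from 51.7 M to 155.4 M expected counts and fell into 2 ranges. Of the libraries, 3 of WT oil, 2 of WT CCl4 and 1 of ΔEGFR CCl4 lay between 51.7 M and 61.9 M, and the other 9, which include all 4 of ΔEGFR oil, lay between 96.2 M and 155.4 M. In oil, depth range and genotype cannot be told apart except through WT oil replicate 1, which lay in the upper range. The hepatocyte label was checked against 19 hepatocyte genes such as Alb, whose summed level was 101206 to 163808 transcripts-per-million units (TPM) in ΔEGFR CCl4, 85898 to 169704 in ΔEGFR oil, 103772 to 176705 in WT CCl4 and 98203.5 to 172385 in WT oil. That sum is weighted towards the genes with the most RNA, such as Alb. In the tests of CCl4 against oil, 18 of the 19 had a negative fold change in each genotype. Their median log2 fold change was −0.86 in ΔEGFR and −0.89 in WT. Markers of other cells were present too. All 19 macrophage markers had a positive fold change with CCl4 in both genotypes, and 3 rose in ΔEGFR and 6 in WT. Their summed level was 3754 to 10768 TPM in ΔEGFR CCl4 against 60.6 to 1611 TPM in ΔEGFR oil, and 3454 to 12893 TPM in WT CCl4 against 121 to 2271 TPM in WT oil. Ms4a7 was listed at 0 TPM in ΔEGFR oil replicate 4 and WT oil replicate 3, and no other macrophage marker was at 0. Stellate cell markers summed to 180.0 to 618 TPM in ΔEGFR CCl4, 33.4 to 198 TPM in ΔEGFR oil, 157 to 420.3 TPM in WT CCl4 and 31.0 to 166 TPM in WT oil, and endothelial markers to 277 to 610.1 TPM, 56.2 to 220.5 TPM, 222 to 420.1 TPM and 45.3 to 565 TPM in the same 4 groups.

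WT oil replicate 1 stood apart from the other WT oil libraries. Its neutrophil markers summed to 5409 TPM and its T and NK cell markers to 193 TPM, against at most 72.2 and 7.65 TPM in the other 3. It had the lowest value of its group for 37 of the 38 enzyme genes, Tat being the exception. A score of 80 tested markers of other cells (mean of log2 CPM, the counts-per-million value after TMM scaling of library totals) was 3.49, 4.24, 3.87 and 3.63 in ΔEGFR CCl4, 3.23, 2.33, 2.37 and 0.03 in ΔEGFR oil, 3.63, 3.94 and 3.92 in WT CCl4, and 4.54, 0.55, 0.05 and 2.55 in WT oil. The 3 libraries with the highest median enzyme level, ΔEGFR oil replicate 4 and WT oil replicates 2 and 3, were also the 3 with the lowest scores. In bulk RNA, fewer hepatocytes and less enzyme RNA per hepatocyte cannot be told apart.

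**Figure D1:**
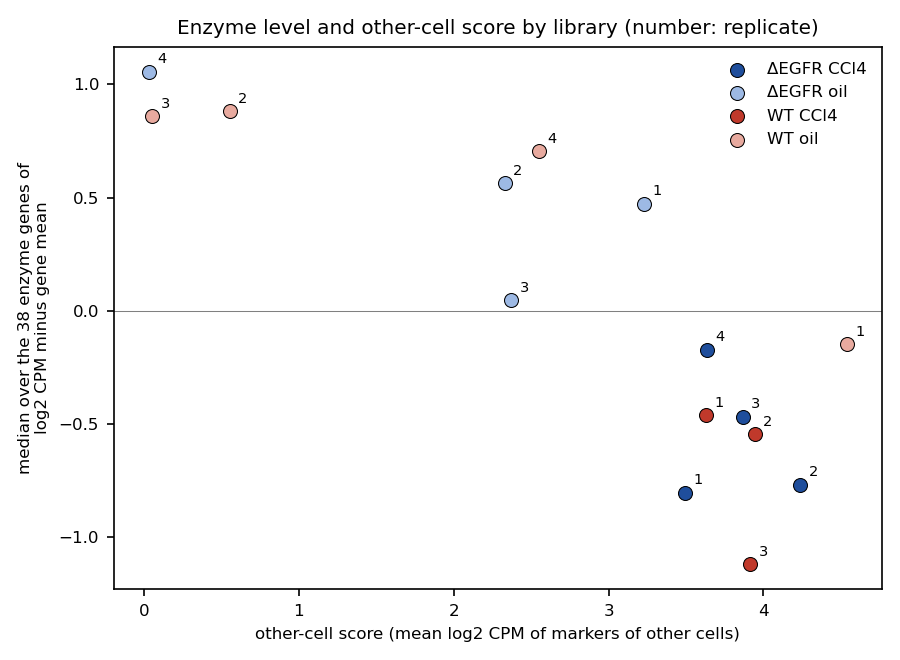
Each point is 1 of the 15 libraries. The x axis gives the other-cell score (mean log2 CPM of markers of other cells) and the y axis the median over the 38 enzyme genes of log2 CPM minus the gene's mean over all libraries. The 7 CCl4 libraries lie at scores of 3.49 to 4.24 and below 0 on the y axis, and WT oil replicate 1, at 4.54, is the only oil library below 0.

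Transcripts of many of these enzymes fell with CCl4 in both genotypes, and none rose. In ΔEGFR 15 of the 38 genes fell and 0 rose at an adjusted p under 0.05 (edgeR quasi-likelihood test, Benjamini-Hochberg over 17975 genes), where 2.38% of all genes tested fell and 1.77% rose. In WT 25 of the 38 fell and 0 rose, where 7.2% of all genes fell and 5.31% rose. DESeq2 called 22 genes lower in ΔEGFR and 28 in WT, with 0 higher. Over all 17975 genes it called 2410 in ΔEGFR and 3622 in WT, in either direction, more than edgeR did. The median log2 fold change of the 38 genes was −1.17 in ΔEGFR and −1.37 in WT, beside −0.02 and −0.03 over all genes tested. All CCl4 libraries lay below all oil libraries for 24 of the 38 genes in ΔEGFR and for 26 in WT, where 9.32% and 11.9% of all genes did so. Since the list was chosen with earlier results of these data known, these contrasts with all genes are a description and no independent check.

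The genes called in ΔEGFR were, but for 1, also called in WT. The shared genes, 14 of the 15 called in ΔEGFR and 14 of the 25 called in WT, were Hpd, Hgd, Afmid, Kynu, Haao, Dmgdh, Sardh, Gnmt, Ahcy, Cth, Aass, Prodh, Got1 and Etnppl. In WT alone 11 were called (Fah, Tdo2, Kmo, Ftcd, Mat1a, Prodh2, Aldh4a1, Bckdha, Bckdhb, Agxt and Gpt), and in ΔEGFR alone 1, Hal. A total of 12 genes passed in neither genotype. The difference between the genotypes in this response was itself tested and passed for 0 of the 38 genes, as described further on, so the unequal counts do not show that the genotypes differed. The 38 genes together made up 0.689, 0.786, 0.794 and 0.985% of TPM in ΔEGFR CCl4, against 0.887, 1.48, 1.17 and 1.72% in ΔEGFR oil. In WT they made up 0.722, 0.740 and 0.620% with CCl4, against 0.855, 1.70, 1.61 and 1.55% with oil. The CCl4 and oil libraries overlapped in ΔEGFR and did not overlap in WT.

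The sign of some fold changes that did not pass depended on how the libraries were scaled. The fold changes here use TMM (trimmed mean of M values) factors, under which all 38 were negative in both genotypes. With no scaling factor the all-gene median was 0.44 in ΔEGFR and 0.40 in WT. In that setting 9 of the enzyme genes in ΔEGFR and 19 in WT were called lower and 0 higher, and the fold change turned positive for Tat, Amt and Bckdha in ΔEGFR and for Cbs, Gldc, Acmsd, Sdsl and Amt in WT. Over all genes that setting called 997 higher and 183 lower in ΔEGFR, beside 319 and 427 with TMM, and 2326 higher and 515 lower in WT, beside 955 and 1295 with TMM. On log2(TPM + 1) limma called 6 enzyme genes lower in ΔEGFR and 15 in WT, with 0 higher, and the genes with positive values were Tat, Amt, Gcsh, Dbt and Bckdha in ΔEGFR and Tat, Cbs, Gldc, Acmsd, Sdsl, Amt and Gcsh in WT. None of these had been called in the genotype in which it turned. In ΔEGFR limma called more of all genes than edgeR did, as given in the closing section on processing. Its 6 enzyme genes therefore stand against a larger background. For WT the limma count over all genes is not given here.

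**Figure D2:**
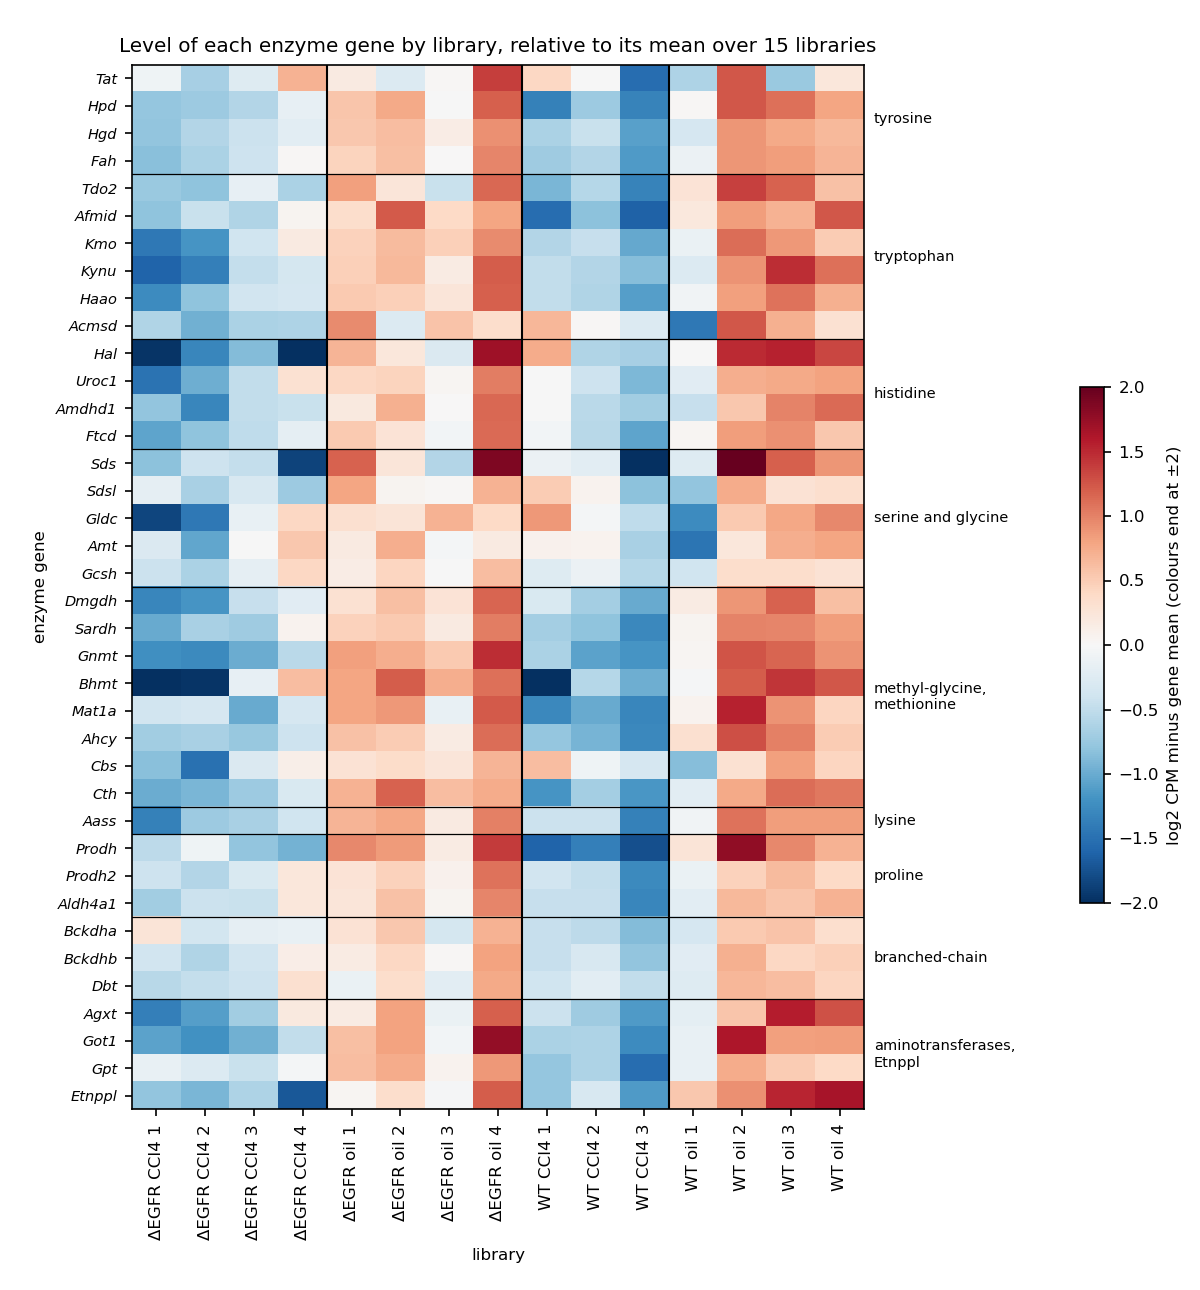
Rows are the 38 enzyme genes by route, columns the 15 libraries by group. Colour gives log2 TMM-scaled CPM minus the gene's mean over the libraries, with blue below and red above the mean. Most of the CCl4 columns are blue for most genes, WT oil replicate 1 is paler than the other WT oil columns, and Tat, Acmsd, Gldc, Amt and Cbs show mixed colours in both treatments.

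**Figure D3:**
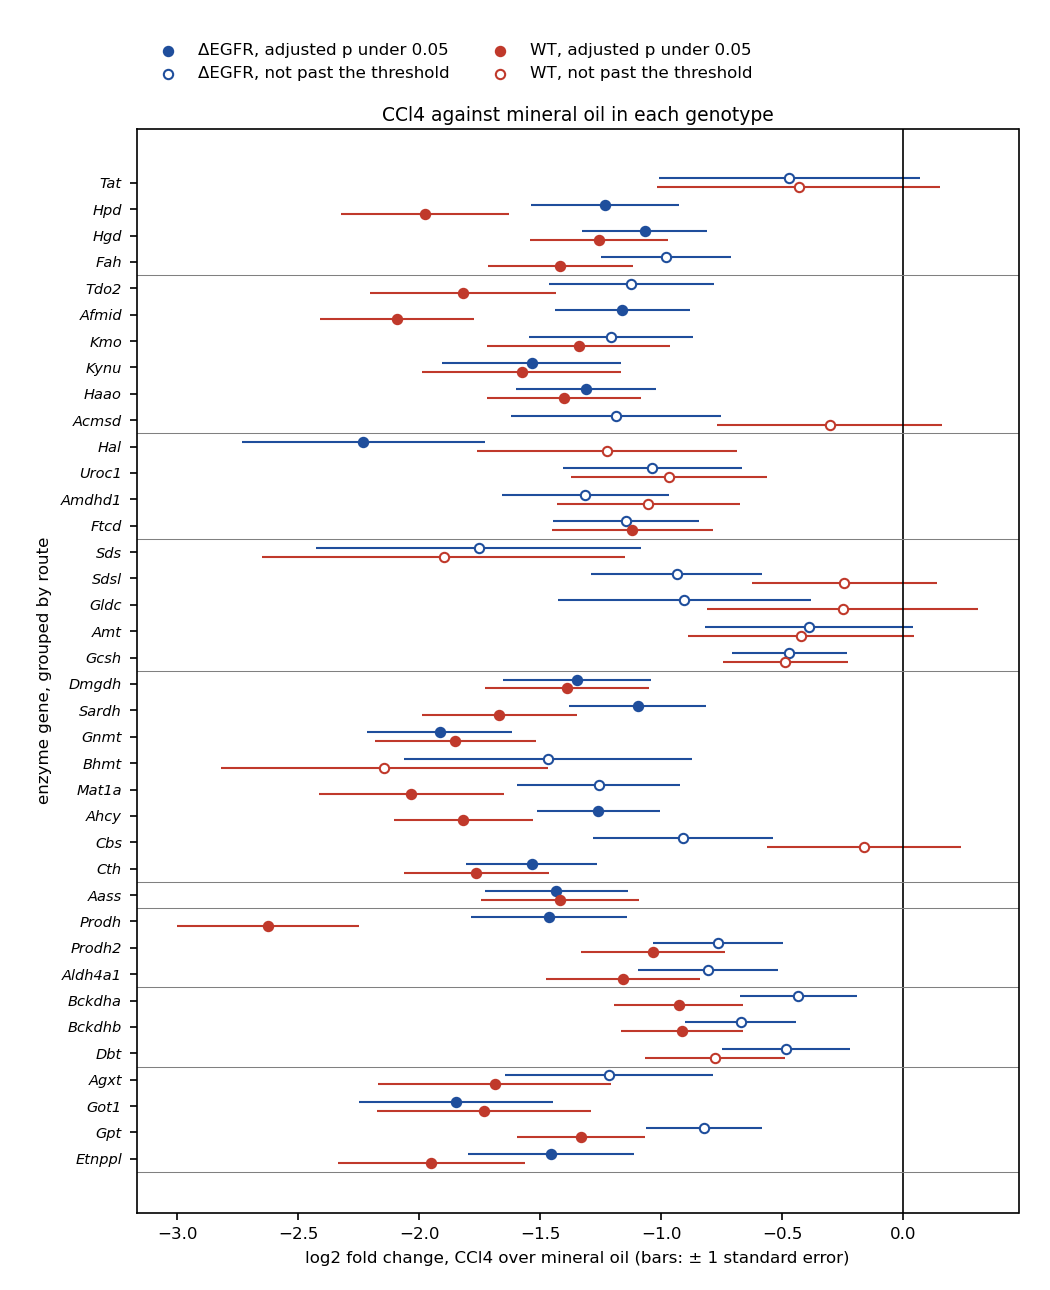
Log2 fold change of CCl4 over oil for each enzyme gene, ΔEGFR in blue and WT in red, with bars of 1 standard error. Filled points passed an adjusted p of 0.05 (15 in ΔEGFR, 25 in WT), and every point lies below 0 under TMM scaling, whereas 3 in ΔEGFR and 5 in WT were above 0 without a scaling factor.

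The upstream sequence of 4 genes is shown as examples of different outcomes. Prodh fell most in WT, Gnmt fell in both genotypes whichever library was left out, and Hal passed in ΔEGFR alone. Tat was 1 of the 12 genes that passed in neither, and its fold changes were not the closest to zero. In WT Hal was −1.22 ± 0.54 (edgeR adjusted p = 0.151), and its difference between the genotypes in this response did not pass. RefSeq promoter windows (GRCm38.p6, 250 bases before to 50 after the gene start) were found for 31 of the 38 genes, as 33 windows. Each is printed 5′ to 3′ on the gene's strand in lower case, with capitals for matches, on either strand, to the TATA box (TATAAA), the HNF1 half-site (GTTAAT), the HNF4 core (CAAAGTCCA), the C/EBP core (TTGCNNAA), the glucocorticoid receptor half-site (TGTTCT) or the CCAAT box (CCAAT).
Prodh, chr16:18089141-18089440, minus strand: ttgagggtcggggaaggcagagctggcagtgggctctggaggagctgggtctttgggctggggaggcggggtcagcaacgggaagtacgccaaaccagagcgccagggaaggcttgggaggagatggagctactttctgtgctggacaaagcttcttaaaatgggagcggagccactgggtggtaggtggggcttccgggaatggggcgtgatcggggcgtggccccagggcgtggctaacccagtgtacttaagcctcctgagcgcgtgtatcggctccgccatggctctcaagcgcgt
Gnmt, chr17:46729116-46729415, minus strand: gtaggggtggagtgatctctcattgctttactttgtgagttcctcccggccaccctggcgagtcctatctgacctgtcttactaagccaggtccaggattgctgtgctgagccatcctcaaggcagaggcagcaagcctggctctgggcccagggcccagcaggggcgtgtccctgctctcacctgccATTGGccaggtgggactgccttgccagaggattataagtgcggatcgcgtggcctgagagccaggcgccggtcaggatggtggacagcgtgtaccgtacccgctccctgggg
Hal, chr10:93488518-93488817, plus strand: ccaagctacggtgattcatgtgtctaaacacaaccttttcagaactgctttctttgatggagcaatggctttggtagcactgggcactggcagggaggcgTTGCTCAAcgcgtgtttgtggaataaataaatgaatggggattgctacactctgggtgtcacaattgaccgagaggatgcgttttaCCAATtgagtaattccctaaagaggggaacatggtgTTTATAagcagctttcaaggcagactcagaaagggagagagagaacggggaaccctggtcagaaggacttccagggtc
Tat, chr8:109990186-109990485, plus strand: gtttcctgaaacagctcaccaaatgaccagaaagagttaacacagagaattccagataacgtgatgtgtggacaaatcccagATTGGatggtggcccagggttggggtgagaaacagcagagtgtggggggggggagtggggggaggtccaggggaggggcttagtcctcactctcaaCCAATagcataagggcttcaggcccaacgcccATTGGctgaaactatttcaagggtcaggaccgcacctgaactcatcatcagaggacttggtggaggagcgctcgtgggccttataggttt
The Prodh window held none of these letters. Gnmt held 1 CCAAT box, Hal held a C/EBP core, a CCAAT box and a TATA box, and Tat held 3 CCAAT boxes. Over the 33 windows CCAAT was found in 18, beside 37.4% of 32851 promoters in the same table. TATAAA was found in 4 (13.6% of all), GTTAAT in 5 (7.10%), TTGCNNAA in 4 (10.8%), TGTTCT in 4 (19.0%) and CAAAGTCCA in 0 (0.475%). These letters are a description of the windows and not binding sites.

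Per unit of transcript length the methyl-glycine and methionine route held the largest share of this RNA. Its 8 genes summed to 2499.5, 3075, 3213 and 4361 TPM in ΔEGFR CCl4 against 4196, 7414, 6023 and 7618 TPM in ΔEGFR oil. In WT they summed to 2739, 2889 and 2898 TPM with CCl4 against 4055, 7779, 7922 and 7243 TPM with oil. CCl4 and oil libraries did not overlap in WT, and in ΔEGFR they overlapped through CCl4 replicate 4 and oil replicate 1. The tyrosine route followed with 2116, 2184, 2069 and 2809 TPM in ΔEGFR CCl4 against 1968, 3306, 2576 and 4376 TPM in ΔEGFR oil, and 1932, 2059.6 and 1383 TPM in WT CCl4 against 1914, 4222, 3239 and 3515 TPM in WT oil. The tyrosine sums of CCl4 and oil overlapped in both genotypes. The single genes with the highest TPM in oil were Bhmt, Gnmt and Hpd, at 1634 ± 481, 1618 ± 484 and 1505 ± 511 TPM in ΔEGFR oil and 1747 ± 619, 1622 ± 461 and 1731 ± 479.9 TPM in WT oil (SD, n = 4 each). Sdsl was the lowest, at 11.7 ± 1.49 TPM in ΔEGFR oil and 10.6 ± 3.74 TPM in WT oil. Values below are CPM after TMM scaling, which serve to compare libraries within a gene and not genes with each other.

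The methyl-glycine and methionine route was the largest, with 8 genes. Of these 5 fell in ΔEGFR (Dmgdh, Sardh, Gnmt, Ahcy, Cth) and 6 in WT (those 5 with Mat1a), with route medians of −1.30 and −1.79 on the log2 scale. Gnmt, glycine N-methyltransferase, uses S-adenosylmethionine to make sarcosine. It had 268, 257, 315 and 428 CPM in ΔEGFR CCl4 against 1102, 1036, 896 and 1746 CPM in ΔEGFR oil. In WT Gnmt had 405, 298 and 274 CPM with CCl4 against 642, 1492, 1400.2 and 1158 CPM with oil. Every CCl4 library lay below every oil library. Gnmt was 3.77-fold lower in ΔEGFR (log2 fold change −1.91 ± 0.30, edgeR adjusted p = 0.0102) and 3.60-fold lower in WT (−1.85 ± 0.33, adjusted p = 0.00638). It was the only one of the 38 genes that stayed called in both genotypes whichever single library was left out, with adjusted p up to 0.0467 in ΔEGFR and 0.0362 in WT.

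Ahcy, which hydrolyses S-adenosylhomocysteine left by methyl transfer, had 687, 712, 659 and 844 CPM in ΔEGFR CCl4 against 1671, 1596, 1256 and 2426 CPM in ΔEGFR oil. In WT Ahcy had 655, 584 and 459.6 CPM with CCl4 against 1398, 2735, 2250.4 and 1595 CPM with oil. Ahcy was 2.39-fold lower in ΔEGFR (−1.26 ± 0.25, edgeR adjusted p = 0.0229) and 3.52-fold lower in WT (−1.82 ± 0.29, adjusted p = 0.00434), with no overlap of CCl4 and oil. The ΔEGFR call of Ahcy was lost without ΔEGFR CCl4 replicate 1, 2 or 3 or ΔEGFR oil replicate 4 (adjusted p up to 0.0817).

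Mat1a, the liver synthetase of S-adenosylmethionine, had 916, 946, 595 and 946 CPM in ΔEGFR CCl4 against 2070.0, 2190.0, 1078 and 2804 CPM in ΔEGFR oil. In WT Mat1a had 492, 598 and 482 CPM with CCl4 against 1256, 3478, 2225 and 1613 CPM with oil. Mat1a fell in WT (−2.03 ± 0.38, edgeR adjusted p = 0.00745) and missed the threshold in ΔEGFR (−1.26 ± 0.34, adjusted p = 0.0524), where it passed without ΔEGFR oil replicate 3 or WT oil replicate 1 or 2 (adjusted p from 0.0263 to 0.0403). Cth, which releases cysteine from cystathionine, averaged 132 ± 29.5 CPM in ΔEGFR CCl4 and 382 ± 70.9 CPM in ΔEGFR oil, and 109 ± 22.6 CPM in WT CCl4 (n = 3) and 368 ± 129 CPM in WT oil (SD, n = 4 otherwise). It fell in both (−1.54 ± 0.27 in ΔEGFR, adjusted p = 0.0158, and −1.76 ± 0.30 in WT, adjusted p = 0.00553). The ΔEGFR call of Cth was lost without ΔEGFR CCl4 replicate 1 or 2 (adjusted p up to 0.0682).

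Sardh and Dmgdh, the mitochondrial dehydrogenases that demethylate sarcosine and dimethylglycine, fell in both genotypes. Sardh averaged 465 ± 161 CPM in ΔEGFR CCl4 and 994 ± 255 CPM in ΔEGFR oil, and 355 ± 75.2 CPM in WT CCl4 (n = 3) and 1128 ± 297 CPM in WT oil (SD, n = 4 otherwise), without overlap in either genotype. Its log2 fold change was −1.10 ± 0.28 in ΔEGFR (edgeR adjusted p = 0.0476) and −1.67 ± 0.32 in WT (adjusted p = 0.00792). The ΔEGFR call of Sardh was lost without ΔEGFR CCl4 replicate 1, 2 or 3, ΔEGFR oil replicate 1, 2 or 4, WT CCl4 replicate 1, 2 or 3 or WT oil replicate 2, 3 or 4 (adjusted p up to 0.151). Dmgdh had 127, 138, 228 and 267 CPM in ΔEGFR CCl4 against 385, 474, 377 and 699 CPM in ΔEGFR oil, and 254, 195 and 155 CPM in WT CCl4 against 351, 574, 709 and 476 CPM in WT oil. CCl4 and oil did not overlap, and its fold change was −1.35 ± 0.31 in ΔEGFR (adjusted p = 0.0349) and −1.39 ± 0.34 in WT (adjusted p = 0.0205). The call of Dmgdh was lost in ΔEGFR without ΔEGFR CCl4 replicate 1, 2 or 3 or ΔEGFR oil replicate 1, 2 or 4 (adjusted p up to 0.114), and in WT without WT CCl4 replicate 2 or 3 or WT oil replicate 2 or 3 (adjusted p up to 0.0984).

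Bhmt, which remethylates homocysteine with betaine, ranged widely among CCl4 libraries. It had 263, 416, 1435 and 2482 CPM in ΔEGFR CCl4 against 2805, 3740.0, 2677 and 3478 CPM in ΔEGFR oil. In WT Bhmt had 394, 1083 and 819 CPM with CCl4 against 1593, 3737, 4369 and 3832 CPM with oil. CCl4 and oil did not overlap in either genotype, yet neither fold change passed (−1.47 ± 0.59 in ΔEGFR, edgeR adjusted p = 0.153, and −2.14 ± 0.68 in WT, adjusted p = 0.0539). In WT it passed without ΔEGFR CCl4 replicate 1, 2 or 4 or WT oil replicate 1 (adjusted p from 0.0237 to 0.0488). Cbs, which condenses homocysteine with serine, did not pass either. It had 211, 134, 311 and 412 CPM in ΔEGFR CCl4 against 463, 491, 446 and 609.6 CPM in ΔEGFR oil, without overlap (−0.91 ± 0.37, adjusted p = 0.156). In WT the 583, 358 and 301 CPM with CCl4 lay within the 209, 466, 670.5 and 509 CPM with oil (−0.16 ± 0.40, adjusted p = 0.82).

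**Figure D4:**
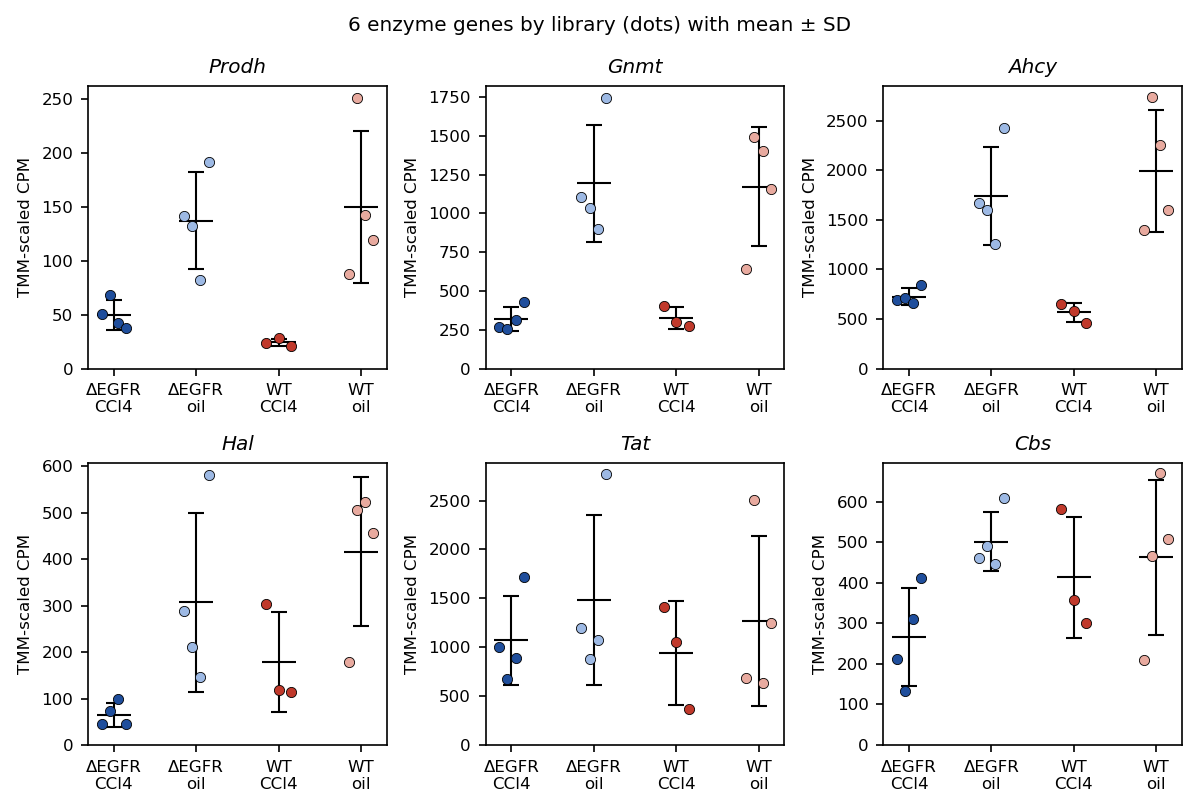
TMM-scaled CPM of Prodh, Gnmt, Ahcy, Hal, Tat and Cbs, 1 dot per library, with the mean and SD of each group. Prodh, Gnmt and Ahcy show no overlap of CCl4 with oil in either genotype, Hal and Cbs show none in ΔEGFR, and Tat overlaps throughout.

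In the proline route Prodh, the mitochondrial dehydrogenase that starts proline oxidation, had the lowest fold change of all 38 genes in WT. It had 50.4, 68.4, 41.9 and 37.8 CPM in ΔEGFR CCl4 against 141, 132, 82.1 and 192 CPM in ΔEGFR oil. In WT Prodh had 23.6, 28.0 and 21.1 CPM with CCl4 against 87.5, 250.2, 142 and 119 CPM with oil. The CCl4 libraries lay below the oil libraries in each genotype, and the 3 WT CCl4 values were the lowest of all 15. Prodh was 2.76-fold lower in ΔEGFR (−1.46 ± 0.32, edgeR adjusted p = 0.0322) and 6.17-fold lower in WT (−2.63 ± 0.38, adjusted p = 0.00352). The ΔEGFR call was lost without ΔEGFR CCl4 replicate 1, 2, 3 or 4 or ΔEGFR oil replicate 1, 2 or 4 (adjusted p up to 0.101). The WT call held whichever library was left out.

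Prodh2, a related dehydrogenase that acts on hydroxyproline, had 76.4, 67.5, 82.1 and 119 CPM in ΔEGFR CCl4 against 123, 140.0, 108 and 216 CPM in ΔEGFR oil. In WT Prodh2 had 77.7, 73.1 and 41.8 CPM with CCl4 against 92.9, 139.8, 158 and 134 CPM with oil. Groups overlapped in ΔEGFR and not in WT, and Prodh2 fell in WT alone (−0.77 ± 0.27 in ΔEGFR, edgeR adjusted p = 0.112, and −1.03 ± 0.30 in WT, adjusted p = 0.0384). The WT call of Prodh2 was lost without ΔEGFR CCl4 replicate 3, ΔEGFR oil replicate 2, WT CCl4 replicate 1, 2 or 3 or WT oil replicate 2, 3 or 4 (adjusted p up to 0.169).

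Aldh4a1, the dehydrogenase that completes the conversion of proline to glutamate, had 209.6, 254, 249.7 and 400.5 CPM in ΔEGFR CCl4 against 406, 514, 355 and 673 CPM in ΔEGFR oil, and 248, 248 and 138 CPM in WT CCl4 against 294, 533, 504 and 555 CPM in WT oil. The treatments overlapped in ΔEGFR and not in WT. Aldh4a1 fell in WT (−1.16 ± 0.32, adjusted p = 0.0333) and was −0.81 ± 0.29 in ΔEGFR (adjusted p = 0.116). The WT call of Aldh4a1 was lost without WT CCl4 replicate 1, 2 or 3 or WT oil replicate 2, 3 or 4 (adjusted p up to 0.145).

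The tyrosine route runs from Tat, tyrosine aminotransferase, through Hpd, 4-hydroxyphenylpyruvate dioxygenase, and Hgd, homogentisate dioxygenase, to Fah, which splits fumarylacetoacetate. Of these 4 genes 2 fell in ΔEGFR (Hpd, Hgd) and 3 in WT (Hpd, Hgd, Fah). Hpd had 553, 571, 631 and 849 CPM in ΔEGFR CCl4 against 1389.8, 1609, 942 and 2176 CPM in ΔEGFR oil. In WT Hpd had 369.7, 570.0 and 374 CPM with CCl4 against 965, 2244, 2038 and 1640.2 CPM with oil. Both genotypes showed no overlap, and Hpd was 2.35-fold lower in ΔEGFR (−1.23 ± 0.31, edgeR adjusted p = 0.0416) and 3.93-fold lower in WT (−1.97 ± 0.35, adjusted p = 0.00638). The ΔEGFR call of Hpd was lost without ΔEGFR CCl4 replicate 1, 2 or 3, ΔEGFR oil replicate 1, 2 or 4, WT CCl4 replicate 2 or 3 or WT oil replicate 4 (adjusted p up to 0.133).

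Hgd had 176, 202, 226 and 262 CPM in ΔEGFR CCl4 against 442, 467, 336 and 569 CPM in ΔEGFR oil, and 195, 224 and 142 CPM in WT CCl4 against 241, 559, 511 and 476 CPM in WT oil. CCl4 lay below oil without overlap in both genotypes. For Hgd the log2 fold change was −1.07 ± 0.26 in ΔEGFR (adjusted p = 0.0404) and −1.26 ± 0.28 in WT (edgeR adjusted p = 0.0154). The call of Hgd was lost in ΔEGFR without ΔEGFR CCl4 replicate 1, 2 or 3, ΔEGFR oil replicate 1, 2 or 4, WT CCl4 replicate 2 or WT oil replicate 4 (adjusted p up to 0.122), and in WT without WT CCl4 replicate 3 (adjusted p = 0.0739). Fah had 195, 225, 263 and 358 CPM in ΔEGFR CCl4 against 477, 532, 355 and 689 CPM in ΔEGFR oil. In WT Fah had 215, 233 and 159 CPM with CCl4 against 324, 649, 627 and 560.2 CPM with oil. Fah overlapped in ΔEGFR through CCl4 replicate 4 and oil replicate 3 and missed the threshold there (−0.98 ± 0.27, adjusted p = 0.0572), and it fell in WT (−1.42 ± 0.30, adjusted p = 0.0119). In ΔEGFR it passed without ΔEGFR CCl4 replicate 4, ΔEGFR oil replicate 3 or WT oil replicate 1 (adjusted p from 0.0239 to 0.0399), and in WT the call was lost without WT CCl4 replicate 3 (adjusted p = 0.0603).

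Tat, the hormone-induced first step, passed in neither genotype. It had 1002, 670.2, 886 and 1719 CPM in ΔEGFR CCl4 against 1199.7, 880.1, 1075 and 2769 CPM in ΔEGFR oil. In WT Tat had 1406, 1052 and 366 CPM with CCl4 against 687, 2510.3, 635 and 1245 CPM with oil. Values of both treatments were mixed, and neither fold change passed (−0.47 ± 0.54 in ΔEGFR, edgeR adjusted p = 0.618, and −0.43 ± 0.58 in WT, adjusted p = 0.662).

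The tryptophan genes follow the kynurenine route. Tdo2, the liver dioxygenase that opens the ring of tryptophan, is followed by Afmid, kynurenine formamidase, Kmo, kynurenine monooxygenase, Kynu, kynureninase, and Haao, which opens the ring of 3-hydroxyanthranilate. Of the 6 genes 3 fell in ΔEGFR (Afmid, Kynu, Haao) and 5 in WT (those 3 with Tdo2 and Kmo). Afmid had 39.1, 50.4, 45.3 and 71.0 CPM in ΔEGFR CCl4 against 88.1, 162, 90.8 and 119 CPM in ΔEGFR oil. In WT Afmid had 23.5, 38.4 and 22.0 CPM with CCl4 against 79.9, 122, 111 and 163 CPM with oil. There was no overlap, and Afmid was 2.24-fold lower in ΔEGFR (−1.16 ± 0.28, edgeR adjusted p = 0.0401) and 4.26-fold lower in WT (−2.09 ± 0.32, adjusted p = 0.00383). The ΔEGFR call of Afmid was lost without ΔEGFR CCl4 replicate 1, 2 or 3 or ΔEGFR oil replicate 1, 2 or 4 (adjusted p up to 0.118).

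Kynu had 26.7, 31.3, 58.5 and 63.7 CPM in ΔEGFR CCl4 against 113, 128, 91.8 and 189 CPM in ΔEGFR oil, and 57.8, 54.1 and 45.2 CPM in WT CCl4 against 67.6, 153, 228 and 176 CPM in WT oil. CCl4 lay below oil without overlap in both genotypes. For Kynu the log2 fold change was −1.54 ± 0.37 in ΔEGFR (adjusted p = 0.0404) and −1.58 ± 0.41 in WT (edgeR adjusted p = 0.0264). The call of Kynu was lost in ΔEGFR without ΔEGFR CCl4 replicate 1, 2 or 3, ΔEGFR oil replicate 1, 2 or 4, WT CCl4 replicate 2 or 3 or WT oil replicate 4 (adjusted p up to 0.129), and in WT without WT CCl4 replicate 1, 2 or 3 or WT oil replicate 2 or 3 (adjusted p up to 0.112). Haao had 81.3, 111, 150.3 and 155 CPM in ΔEGFR CCl4 against 282, 273, 231 and 449 CPM in ΔEGFR oil, and 139, 129.7 and 91.4 CPM in WT CCl4 against 188, 345, 416 and 322 CPM in WT oil. CCl4 lay below oil without overlap in both genotypes. For Haao the log2 fold change was −1.31 ± 0.29 in ΔEGFR (adjusted p = 0.0319) and −1.40 ± 0.32 in WT (adjusted p = 0.0157). The call of Haao was lost in ΔEGFR without ΔEGFR CCl4 replicate 1, 2 or 3 or ΔEGFR oil replicate 1, 2 or 4 (adjusted p up to 0.107), and in WT without WT CCl4 replicate 2 or 3 (adjusted p up to 0.0783).

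Tdo2 had 420.2, 400.5, 625 and 451 CPM in ΔEGFR CCl4 against 1241, 827, 512 and 1554 CPM in ΔEGFR oil. In WT Tdo2 had 373, 472 and 278 CPM with CCl4 against 846, 1802, 1589.9 and 1048 CPM with oil. In ΔEGFR the groups overlapped through CCl4 replicate 3 and Tdo2 did not pass (−1.12 ± 0.34, edgeR adjusted p = 0.0768), and in WT it fell (−1.82 ± 0.39, adjusted p = 0.012). Tdo2 passed in ΔEGFR without ΔEGFR oil replicate 3 or WT oil replicate 1 (adjusted p from 0.0335 to 0.0434), and its WT call was lost without WT CCl4 replicate 3 (adjusted p = 0.0614).

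Kmo had 70.5, 83.5, 144 and 216 CPM in ΔEGFR CCl4 against 263, 294, 264 and 365 CPM in ΔEGFR oil, and 127, 137 and 92.9 CPM in WT CCl4 against 174, 414, 347 and 271 CPM in WT oil. CCl4 lay below oil without overlap in both genotypes. It fell in WT (−1.34 ± 0.38, edgeR adjusted p = 0.0353) and was −1.21 ± 0.34 in ΔEGFR (adjusted p = 0.0625). Kmo passed in ΔEGFR without ΔEGFR CCl4 replicate 4 or WT oil replicate 1 (adjusted p from 0.0254 to 0.0314), and its WT call was lost without ΔEGFR oil replicate 2, WT CCl4 replicate 1, 2 or 3 or WT oil replicate 2 or 3 (adjusted p up to 0.151).

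Acmsd, which directs the route away from NAD and towards full oxidation, passed in neither genotype. It had 17.1, 13.2, 16.8 and 16.9 CPM in ΔEGFR CCl4 against 51.2, 21.7, 39.0 and 33.5 CPM in ΔEGFR oil, without overlap. In WT Acmsd had 41.7, 26.7 and 21.6 CPM with CCl4 against 9.42, 62.7, 43.3 and 32.7 CPM with oil, all 3 within the range of oil, and WT oil replicate 1 was the lowest of all 15. Neither fold change passed (−1.19 ± 0.43 in ΔEGFR, edgeR adjusted p = 0.123, and −0.30 ± 0.47 in WT, adjusted p = 0.703). In ΔEGFR Acmsd passed without WT oil replicate 1 (adjusted p = 0.0241).

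In the histidine route 1 of 4 genes fell in each genotype, Hal in ΔEGFR and Ftcd in WT. Hal, histidine ammonia-lyase, the first step, had 45.7, 72.7, 98.6 and 44.6 CPM in ΔEGFR CCl4 against 289, 210.4, 147 and 581 CPM in ΔEGFR oil. In WT Hal had 303, 118 and 113 CPM with CCl4 against 179, 506, 522 and 457 CPM with oil. The ΔEGFR groups did not overlap, and in WT CCl4 replicate 1 lay above oil replicate 1. Hal was 4.70-fold lower in ΔEGFR (−2.23 ± 0.50, edgeR adjusted p = 0.0339) and did not pass in WT (−1.22 ± 0.54, adjusted p = 0.151). In WT Hal passed without WT oil replicate 1 (adjusted p = 0.0484). The ΔEGFR call of Hal was lost without ΔEGFR CCl4 replicate 1, 2, 3 or 4 or ΔEGFR oil replicate 1, 2 or 4 (adjusted p up to 0.103).

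Ftcd, which moves the formimino group to folate at the end of the histidine route, fell in WT (−1.12 ± 0.33, edgeR adjusted p = 0.0433) and missed the threshold in ΔEGFR at about the same fold change (−1.15 ± 0.30, adjusted p = 0.051). It had 116, 138, 169 and 212 CPM in ΔEGFR CCl4 against 347, 292, 231 and 531 CPM in ΔEGFR oil, and 232, 165 and 116 CPM in WT CCl4 against 248, 431, 455 and 349.6 CPM in WT oil. No CCl4 value reached an oil value in either genotype. Ftcd passed in ΔEGFR without ΔEGFR CCl4 replicate 4, ΔEGFR oil replicate 3, WT CCl4 replicate 1 or WT oil replicate 1 (adjusted p from 0.0283 to 0.0461), and its WT call was lost without ΔEGFR CCl4 replicate 2 or 3, ΔEGFR oil replicate 1 or 2, WT CCl4 replicate 2 or 3 or WT oil replicate 2, 3 or 4 (adjusted p up to 0.184).

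Uroc1, urocanate hydratase, had 119, 169.8, 236 and 409 CPM in ΔEGFR CCl4 against 442, 456, 342 and 677 CPM in ΔEGFR oil, and 333, 249 and 178 CPM in WT CCl4 against 285, 549, 565 and 582 CPM in WT oil. Uroc1 values of CCl4 and oil overlapped in both genotypes. For Uroc1 the log2 fold change was −1.04 ± 0.37 in ΔEGFR (adjusted p = 0.115) and −0.97 ± 0.41 in WT (edgeR adjusted p = 0.134). Uroc1 passed in ΔEGFR without ΔEGFR CCl4 replicate 4 (adjusted p = 0.0408), and in WT without WT oil replicate 1 (adjusted p = 0.0461). Amdhd1, the imidazolonepropionase of the route, had 66.2, 46.3, 81.1 and 84.6 CPM in ΔEGFR CCl4 against 131, 189, 115 and 256 CPM in ΔEGFR oil, and 115, 79.0 and 70.5 CPM in WT CCl4 against 83.7, 166, 229 and 251 CPM in WT oil. The treatments overlapped in WT and not in ΔEGFR. For Amdhd1 the log2 fold change was −1.31 ± 0.35 in ΔEGFR (adjusted p = 0.0507) and −1.05 ± 0.38 in WT (adjusted p = 0.0845). Amdhd1 passed in ΔEGFR without ΔEGFR oil replicate 3 or WT oil replicate 1 (adjusted p from 0.0193 to 0.0388), and in WT without WT oil replicate 1 (adjusted p = 0.0141).

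No gene of the serine and glycine route passed in either genotype. Of its 5 genes 2 in ΔEGFR and 1 in WT had an unadjusted edgeR p under 0.05, as did 4447 and 5187 of all 17975 genes. Of the 5, DESeq2 called 0 in ΔEGFR and 1 in WT, and limma on TPM called 0. Sds, the serine dehydratase that feeds pyruvate, had the lowest fold changes of the route and the largest standard errors. It had 51.3, 68.1, 65.1 and 24.8 CPM in ΔEGFR CCl4 against 207, 108, 60.2 and 331 CPM in ΔEGFR oil. In WT Sds had 83.9, 78.9 and 12.5 CPM with CCl4 against 75.6, 419.7, 208 and 167 CPM with oil. Values of the treatments overlapped in both genotypes (−1.75 ± 0.67 in ΔEGFR, edgeR adjusted p = 0.135, and −1.90 ± 0.75 in WT, adjusted p = 0.113). In WT Sds passed without WT oil replicate 1 (adjusted p = 0.0441).

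Sdsl, its paralogue, had 7.27, 5.09, 6.56 and 4.79 CPM in ΔEGFR CCl4 against 14.6, 8.64, 8.40 and 13.7 CPM in ΔEGFR oil, without overlap. In WT the 11.9, 8.71 and 4.46 CPM with CCl4 were mixed with the 4.56, 14.1, 10.3 and 10.6 CPM with oil (−0.94 ± 0.35 in ΔEGFR and −0.24 ± 0.38 in WT, edgeR adjusted p = 0.132 and 0.712).

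The 3 genes of the glycine cleavage system, the mitochondrial complex that splits glycine, passed in neither genotype. Gldc, its decarboxylase, had 39.1, 51.9, 127 and 189 CPM in ΔEGFR CCl4 against 176, 169.6, 229 and 186 CPM in ΔEGFR oil. In WT Gldc had 256, 137 and 98.8 CPM with CCl4 against 58.5, 204, 242 and 276 CPM with oil. Both pairs of groups overlapped (−0.90 ± 0.52 in ΔEGFR and −0.25 ± 0.56 in WT, edgeR adjusted p = 0.296 and 0.801). Amt, its aminomethyltransferase, had 23.3, 13.6, 28.3 and 41.9 CPM in ΔEGFR CCl4 against 32.4, 47.5, 28.0 and 32.5 CPM in ΔEGFR oil, and 30.5, 30.1 and 18.0 CPM in WT CCl4 against 10.1, 33.4, 47.5 and 49.6 CPM in WT oil. Amt values of CCl4 and oil overlapped in both genotypes. For Amt the log2 fold change was −0.39 ± 0.43 in ΔEGFR and −0.42 ± 0.47 in WT (adjusted p = 0.603 and 0.584). Gcsh, its lipoyl carrier protein, had 41.1, 35.7, 49.1 and 74.5 CPM in ΔEGFR CCl4 against 62.0, 75.1, 55.3 and 85.3 CPM in ΔEGFR oil, and 46.6, 51.0 and 37.2 CPM in WT CCl4 against 42.0, 71.1, 70.9 and 67.7 CPM in WT oil. Gcsh values of CCl4 and oil overlapped in both genotypes. For Gcsh the log2 fold change was −0.47 ± 0.24 in ΔEGFR and −0.49 ± 0.26 in WT (adjusted p = 0.239 and 0.235).

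Lysine breakdown was represented by Aass, the bifunctional aminoadipate semialdehyde synthase that begins it. Aass had 65.4, 102, 107 and 127 CPM in ΔEGFR CCl4 against 269, 288, 189 and 338 CPM in ΔEGFR oil. In WT Aass had 125, 124 and 65.4 CPM with CCl4 against 161, 356, 302 and 302 CPM with oil. It fell without overlap by almost the same amount in both genotypes (−1.43 ± 0.30 in ΔEGFR, edgeR adjusted p = 0.025, and −1.42 ± 0.33 in WT, adjusted p = 0.0164). The call of Aass was lost in ΔEGFR without ΔEGFR CCl4 replicate 1, 2 or 3 or ΔEGFR oil replicate 2 or 4 (adjusted p up to 0.0827), and in WT without WT CCl4 replicate 3 (adjusted p = 0.0739).

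The branched-chain genes Bckdha, Bckdhb and Dbt encode subunits of the mitochondrial dehydrogenase complex of branched-chain keto acids. None of the 3 passed in ΔEGFR, where 1 had an unadjusted edgeR p under 0.05, as did 4447 of all 17975 genes. DESeq2 and limma on TPM called 0 of the 3 in ΔEGFR. In WT Bckdha and Bckdhb fell. Bckdha had 216, 141, 159.6 and 164 CPM in ΔEGFR CCl4 against 221, 263, 142 and 292 CPM in ΔEGFR oil. In WT Bckdha had 132, 125 and 99.5 CPM with CCl4 against 144, 262, 269 and 229 CPM with oil. Only the WT groups were separate (−0.43 ± 0.24 in ΔEGFR, edgeR adjusted p = 0.28, and −0.93 ± 0.27 in WT, adjusted p = 0.0386). The WT call of Bckdha was lost without ΔEGFR CCl4 replicate 3 or 4, ΔEGFR oil replicate 1 or 2, WT CCl4 replicate 1, 2 or 3 or WT oil replicate 2, 3 or 4 (adjusted p up to 0.159).

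Bckdhb had 25.5, 21.8, 25.6 and 36.6 CPM in ΔEGFR CCl4 against 37.2, 44.6, 33.9 and 58.7 CPM in ΔEGFR oil, and 24.2, 26.6 and 19.0 CPM in WT CCl4 against 28.6, 55.1, 44.6 and 46.8 CPM in WT oil. The treatments overlapped in ΔEGFR and not in WT. For Bckdhb the log2 fold change was −0.67 ± 0.23 in ΔEGFR (adjusted p = 0.106) and −0.91 ± 0.25 in WT (edgeR adjusted p = 0.0337). Bckdhb passed in ΔEGFR without WT oil replicate 1 (adjusted p = 0.0462), and its WT call was lost without WT CCl4 replicate 1, 2 or 3 or WT oil replicate 2, 3 or 4 (adjusted p up to 0.147). Dbt, the transacylase core, had 42.7, 44.9, 47.2 and 79.0 CPM in ΔEGFR CCl4 against 57.6, 80.5, 54.3 and 107 CPM in ΔEGFR oil, and 47.8, 54.1 and 44.5 CPM in WT CCl4 against 52.8, 99.7, 97.1 and 85.1 CPM in WT oil. Dbt values of CCl4 and oil overlapped in both genotypes. For Dbt the log2 fold change was −0.48 ± 0.26 in ΔEGFR (adjusted p = 0.269) and −0.78 ± 0.29 in WT (adjusted p = 0.0947). In WT Dbt passed without WT oil replicate 1 (adjusted p = 0.0237).

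All 4 genes of the last group fell in WT and 2 of them, Got1 and Etnppl, in ΔEGFR. Got1, the cytosolic aspartate aminotransferase, had 72.4, 65.3, 77.6 and 108 CPM in ΔEGFR CCl4 against 229.7, 267, 147 and 518 CPM in ΔEGFR oil. In WT Got1 had 97.5, 98.4 and 62.9 CPM with CCl4 against 137, 468, 269 and 273 CPM with oil. It fell without overlap (−1.85 ± 0.40 in ΔEGFR, edgeR adjusted p = 0.0306, and −1.73 ± 0.44 in WT, adjusted p = 0.0247). The call of Got1 was lost in ΔEGFR without ΔEGFR CCl4 replicate 1, 2 or 3 or ΔEGFR oil replicate 2 or 4 (adjusted p up to 0.105), and in WT without WT CCl4 replicate 1, 2 or 3 or WT oil replicate 2 or 3 (adjusted p up to 0.112).

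Gpt, the cytosolic alanine aminotransferase whose activity in blood is the usual sign of liver damage, had 206, 189, 168 and 222 CPM in ΔEGFR CCl4 against 349.5, 383, 239 and 417 CPM in ΔEGFR oil. In WT Gpt had 134, 149 and 79.4 CPM with CCl4 against 206, 384, 324 and 302 CPM with oil. CCl4 lay below oil in both genotypes, and Gpt fell in WT (−1.33 ± 0.27, edgeR adjusted p = 0.00969) and missed the threshold in ΔEGFR (−0.82 ± 0.24, adjusted p = 0.0677). Gpt passed in ΔEGFR without ΔEGFR oil replicate 3 or WT oil replicate 1 (adjusted p from 0.0323 to 0.0387).

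Agxt, the alanine-glyoxylate aminotransferase whose loss causes oxalate stones in humans, fell in WT (−1.69 ± 0.48, edgeR adjusted p = 0.0377) and was −1.22 ± 0.43 in ΔEGFR (adjusted p = 0.112). It had 56.0, 67.7, 89.1 and 167 CPM in ΔEGFR CCl4 against 163, 255, 133 and 332 CPM in ΔEGFR oil, where CCl4 replicate 4 overlapped, and 107, 88.4 and 65.8 CPM in WT CCl4 against 127, 213, 431 and 352 CPM in WT oil, without overlap. The WT call of Agxt was lost without ΔEGFR CCl4 replicate 3, ΔEGFR oil replicate 2, WT CCl4 replicate 1, 2 or 3 or WT oil replicate 2, 3 or 4 (adjusted p up to 0.156). Etnppl, the lyase that degrades phosphoethanolamine, had 27.4, 25.2, 31.1 and 14.5 CPM in ΔEGFR CCl4 against 49.0, 61.0, 47.3 and 112 CPM in ΔEGFR oil. In WT Etnppl had 27.7, 38.2 and 21.6 CPM with CCl4 against 69.7, 91.0, 139 and 151 CPM with oil. It fell without overlap in both (−1.45 ± 0.34 in ΔEGFR, adjusted p = 0.038, and −1.95 ± 0.39 in WT, adjusted p = 0.00935). The call of Etnppl was lost in ΔEGFR without ΔEGFR CCl4 replicate 1, 2, 3 or 4 or ΔEGFR oil replicate 2 or 4 (adjusted p up to 0.114), and in WT without WT CCl4 replicate 3 (adjusted p = 0.0527).

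Many of the calls did not hold when 1 library was left out, often whichever of several it was. In WT 9 genes were called whichever of the 15 libraries was left out, and these were Hpd, Afmid, Sardh, Gnmt, Mat1a, Ahcy, Cth, Prodh and Gpt. The count of called genes in WT was 9 without WT CCl4 replicate 3, 14 without WT CCl4 replicate 2, 15 without WT oil replicate 2 or 3, and 31 without WT oil replicate 1. In ΔEGFR only Gnmt was called in every such fit. The ΔEGFR count was 1 without ΔEGFR CCl4 replicate 1 or 2, 2 without ΔEGFR CCl4 replicate 3 or ΔEGFR oil replicate 4, 3 without ΔEGFR oil replicate 2, 6 without ΔEGFR oil replicate 1, and 24 without WT oil replicate 1, a library that is in neither ΔEGFR group. None of the called genes changed sign in any of these fits.

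Fold changes were smaller in a fit that held the other-cell score constant. That score was higher in the CCl4 libraries, at 3.49 to 4.24, than in every oil library but WT oil replicate 1. It can therefore take up part of the treatment difference, and this fit cannot tell the score and the treatment apart. With that score as a covariate the median of the 38 genes was −0.71 in ΔEGFR and −0.91 in WT. Gnmt was then the only gene called in ΔEGFR (−1.41 ± 0.23, edgeR adjusted p = 0.0267). In WT 10 genes were called, namely Hpd, Afmid, Sardh, Gnmt, Mat1a, Ahcy, Cth, Prodh, Gpt and Etnppl, with Prodh at −2.13 ± 0.34 (adjusted p = 0.00945). Tat and Amt in ΔEGFR, and Tat, Cbs, Gldc, Acmsd, Sdsl and Amt in WT, turned positive in that fit, none of which had been called. Within a depth range, 0 genes were called, in ΔEGFR from the upper range (30 with unadjusted p under 0.05) and in WT from the lower range (33). All 38 fold changes were still negative in these fits, with medians of −1.17 in ΔEGFR and −1.39 in WT. The share of all genes with an unadjusted p under 0.05 within a depth range is not given here. In the fit of all 15 libraries 4447 of 17975 genes had an unadjusted edgeR p under 0.05 in ΔEGFR, and 5187 in WT.

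No single enzyme gene passed a test between genotypes. In CCl4, ΔEGFR against WT called 0 of the 38 genes and 0% of all genes (edgeR). DESeq2 and limma on TPM called 0 of the 38. An unadjusted edgeR p under 0.05 was found for 4 of the 38, and for 411 of all 17975 genes. The median of the 38 was 0.13. It was 0.48 in the upper depth range, where WT CCl4 is replicate 3 alone, and 0.04 in the lower, where ΔEGFR CCl4 is replicate 3 alone. All ΔEGFR CCl4 libraries lay to 1 side of all WT CCl4 libraries for 7 genes, where 5.06% of all genes did so. Afmid, Ahcy, Prodh, Bckdha and Gpt were higher in ΔEGFR, and Acmsd and Hal were lower. Prodh had 50.4, 68.4, 41.9 and 37.8 CPM in ΔEGFR CCl4 against 23.6, 28.0 and 21.1 CPM in WT CCl4 (1.03 ± 0.35, unadjusted p = 0.0114, adjusted p = 1). Hal had 45.7, 72.7, 98.6 and 44.6 CPM in ΔEGFR CCl4 against 303, 118 and 113 CPM in WT CCl4 (−1.45 ± 0.52, unadjusted p = 0.0149, adjusted p = 1). Gpt and Afmid were 0.70 ± 0.26 and 0.88 ± 0.30, with unadjusted p = 0.0185 and 0.0123 and adjusted p = 1 for each.

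In mineral oil, ΔEGFR against WT called 0 of the 38 genes and 0% of all genes, and DESeq2 and limma called 0. Only 1 of the 38, Etnppl, had an unadjusted edgeR p under 0.05, where 1197 of all 17975 genes did. Etnppl had 49.0, 61.0, 47.3 and 112 CPM in ΔEGFR oil against 69.7, 91.0, 139 and 151 CPM in WT oil (−0.74 ± 0.34, unadjusted p = 0.0456, adjusted p = 0.713). The groups overlapped for all 38 genes, where 2.73% of all genes did not overlap. The median was −0.05, and it was 0.43 with depth range as a covariate and −0.46 without ΔEGFR oil replicate 4 and WT oil replicate 1, the libraries at the ends of the other-cell score. In the upper depth range the WT oil group is WT oil replicate 1 alone, the library that stood apart, and the median against that 1 library was 0.80. The sign of the median in oil thus differed between these fits.

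The interaction asks whether CCl4 changed a gene by another factor in ΔEGFR than in WT. It called 0 of the 38 genes and 0% of all genes, and DESeq2 and limma called 0 of the 38. An unadjusted edgeR p under 0.05 was found for 2 of the 38 genes, where 568 of all 17975 genes had one. The 2 genes were Prodh (1.16 ± 0.47, unadjusted p = 0.028, adjusted p = 1) and Afmid (0.93 ± 0.41, unadjusted p = 0.0396, adjusted p = 1). Both values are positive, so the fold change was less negative in ΔEGFR. Hal had −1.01 ± 0.70 and Gnmt −0.06 ± 0.42, each with adjusted p = 1. The standard errors of the interaction ran from 0.34 for Bckdhb to 0.96 for Sds.

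Ratios between paired genes within a library do not depend on how libraries are scaled. A total of 5 pairs was compared in both genotypes (10 exact two-sided permutation tests on log2 ratios of TPM, adjusted by Benjamini-Hochberg), where the smallest p possible is 0.0286 in ΔEGFR and 0.0571 in WT. Got1 over Gpt was 0.344, 0.326, 0.445 and 0.467 in ΔEGFR CCl4 against 0.650, 0.670, 0.573 and 1.15 in ΔEGFR oil. The groups did not overlap, with a log2 difference of −0.90 (exact permutation p = 0.0286, adjusted p = 0.143). In WT the same ratio was 0.702, 0.650 and 0.756 with CCl4 against 0.647, 1.16, 0.812 and 0.854 with oil, with overlap and a difference of −0.28 (exact permutation p = 0.286).

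Prodh over Prodh2 was 0.463, 0.687, 0.352 and 0.222 in ΔEGFR CCl4 against 0.787, 0.683, 0.523 and 0.645 in ΔEGFR oil, with overlap. In WT it was 0.208, 0.274 and 0.340 with CCl4 against 0.687, 1.26, 0.620 and 0.669 with oil, without overlap. The log2 difference was −0.72 in ΔEGFR (exact permutation p = 0.114) and −1.53 in WT (exact permutation p = 0.0571, adjusted p = 0.143). Sds over Sdsl differed by −0.60 in ΔEGFR (exact permutation p = 0.2) and by −1.79 in WT, where groups did not overlap (exact permutation p = 0.0571, adjusted p = 0.143). Hpd over Tat differed by −0.77 in ΔEGFR (exact permutation p = 0.0571, adjusted p = 0.143) and −1.52 in WT (exact permutation p = 0.114). Bckdha over Bckdhb, subunits of 1 complex, differed by 0.27 in ΔEGFR (exact permutation p = 0.286) and by −0.01 in WT (exact permutation p = 0.971). None of the 10 ratio tests passed after adjustment. With groups of this size an adjusted p under 0.05 was out of reach for every pair, so no conclusion is drawn from that outcome.

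**Figure D5:**
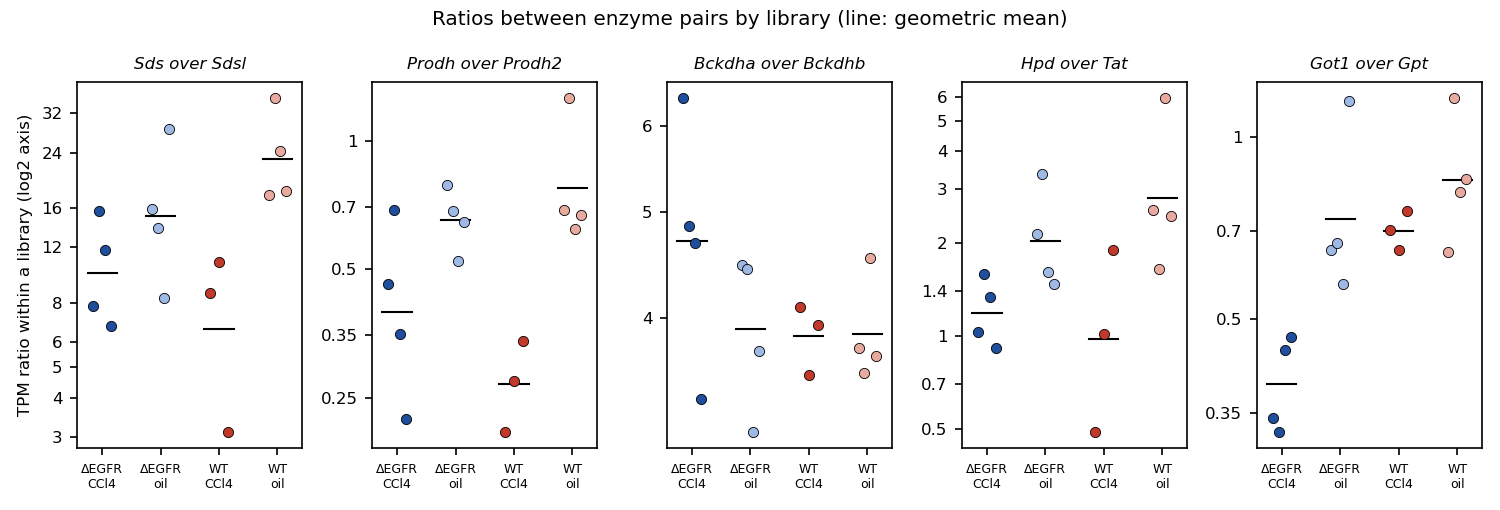
TPM ratio within each library for 5 gene pairs, by group, on a log2 axis, with 1 dot per library and a line at the geometric mean. Got1 over Gpt is lower in all 4 ΔEGFR CCl4 libraries than in the ΔEGFR oil libraries, Prodh over Prodh2 and Sds over Sdsl are lower in all 3 WT CCl4 libraries than in the WT oil libraries, and Bckdha over Bckdhb overlaps in both genotypes.

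Other genes of amino acid breakdown mostly had negative fold changes too. Their list, like the 38, was chosen with earlier results of these data known, so it is no separate check. Of 53 such enzymes 51 were tested and 47 were negative in each genotype. Of the 51 tested, 10 fell in ΔEGFR and 28 in WT, where 2.38% and 7.2% of all genes fell. None of them rose in either genotype, and their medians were −0.68 and −0.94. Among them Oat, ornithine aminotransferase, changed by −3.89 ± 0.62 in ΔEGFR (edgeR adjusted p = 0.0107) and −3.93 ± 0.70 in WT (adjusted p = 0.00638). Aadat, which transaminates kynurenine and aminoadipate, averaged 36.1 ± 9.80 TPM in ΔEGFR CCl4 and 81.5 ± 17.5 TPM in ΔEGFR oil, and 30.9 ± 0.685 TPM in WT CCl4 (n = 3) and 119.9 ± 39.3 TPM in WT oil (SD, n = 4 otherwise). It fell in ΔEGFR (−1.63 ± 0.30, adjusted p = 0.0192) and in WT (−2.39 ± 0.35, adjusted p = 0.00363). Aspg, an asparaginase (−1.80 ± 0.32, adjusted p = 0.016), and Gls2, the liver glutaminase (−1.72 ± 0.37, adjusted p = 0.0306), fell in ΔEGFR. Auh, a hydratase of leucine breakdown (−1.02 ± 0.19, adjusted p = 0.00681), and Shmt1, which exchanges serine and glycine (−1.07 ± 0.22, adjusted p = 0.0111), fell in WT. For Aspg, Gls2, Auh and Shmt1 the other genotype is not given here, and the interaction called 0 of 17975 genes.

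Of 13 amino acid carriers tested 1 fell in ΔEGFR and 6 in WT, where 2.38% and 7.2% of all genes fell. Their medians were −0.67 and −1.06. The 1 in ΔEGFR was Slc1a2, a glutamate carrier (−6.66 ± 1.02, edgeR adjusted p = 0.00991). The lowest fold change of a carrier was −6.66 in ΔEGFR and −7.03 in WT. In WT the lowest edgeR adjusted p of a carrier was 0.00549. Slc38a4, a neutral amino acid carrier, fell in WT (−1.47 ± 0.34, edgeR adjusted p = 0.0157) and was −1.10 ± 0.30 in ΔEGFR (adjusted p = 0.057). Slc6a12, a betaine carrier (−1.26 ± 0.26, adjusted p = 0.0111), and Slc25a13, the mitochondrial aspartate-glutamate carrier, fell in WT (−1.05 ± 0.25, adjusted p = 0.0173). Of 12 regulators of these enzymes 0 fell in ΔEGFR, with 5 at an unadjusted edgeR p under 0.05, as for 4447 of all 17975 genes. DESeq2 called 4 of the 12 in ΔEGFR, beside 2410 over all genes. In WT 3 of the 12 fell, where 7.2% of all genes did. The 3 were Nr3c1, the glucocorticoid receptor (−0.62 ± 0.16, adjusted p = 0.0228), Gcgr, the glucagon receptor (−0.91 ± 0.26, adjusted p = 0.0381), and Hnf4a, a hepatocyte transcription factor (−0.98 ± 0.28, adjusted p = 0.0403). In ΔEGFR Onecut1, another hepatocyte transcription factor, had the lowest fold change of the list at −2.49 ± 0.72 (adjusted p = 0.0675), Hnf4a was −0.87 ± 0.26 (adjusted p = 0.0735) and Gcgr −0.71 ± 0.24 (adjusted p = 0.0979). The 19 hepatocyte genes used to check the label had medians of −0.86 in ΔEGFR and −0.89 in WT, and 4 and 6 of them fell.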

How the data were processed

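Messenger RNA of primary hepatocytes was sequenced in 15 libraries, prepared with a kit that marks strand per the labels' protocols. The submitters' processing notes name STAR 2.7.8a, RSEM 1.3.0 and GRCm39. Which annotation release was used, and whether counting used strand, is not given in the sources used here. The deposited files hold RSEM expected counts and TPM per Ensembl gene, 1 library per file. Names came from a GENCODE table of another build, joined by identifier and used for names alone, and 52029 of 56953 identifiers matched. Replicates were numbered in order of deposit.

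Expected counts were rounded and fitted with edgeR 4.0.16 in R 4.3.3 (filterByExpr, minimum count 10, minimum total 15; TMM; robust quasi-likelihood; 4 group means). All 15 libraries were fitted together with 1 shared estimate of the spread, so a library outside a comparison can change its calls. Called genes had a Benjamini-Hochberg adjusted p under 0.05 over 17975 genes. The biological coefficient of variation was 50.9%. CPM are TMM-scaled, and log2 fold changes are given with their standard errors. The 5 comparisons were CCl4 against oil within a genotype, ΔEGFR against WT within a treatment, and the interaction of both. The scripts were tested on simulated data. Alternatives were DESeq2 1.42.0, other or no scaling factors, other filters, a fit of only the groups compared, limma 3.58.1 on log2(TPM + 1) and log2(TPM + 0.1), covariates for the other-cell score (80 of 82 markers tested; log2 CPM with a prior count of 2) and for depth range, and leaving out each of the 15 libraries. Fits within a depth range, and without both ends of the other-cell score in oil, were chosen after seeing the data. The 38 genes, the routes and the other lists were chosen with earlier results of these data known. All 38 genes are named, and of each other list the genes described are among the 4 with the lowest adjusted p in a comparison.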

Additional observations from a re-analysis of the deposited data

Results flagged for a closer look

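The 38 enzyme genes and their sum were examined in each of the 3 groups of 4 libraries, which gave 117 cases. In 6 of them, each for an enzyme gene, 1 library lay far from the other 3, by the gap to its nearest neighbour over the range of the group (past Dixon's 95% critical value), where chance gives about 1 in 20. Tat had 2769 CPM in ΔEGFR oil replicate 4, against 880.1 to 1200 CPM in the other 3. Acmsd had 13.2 CPM in ΔEGFR CCl4 replicate 2, against 16.8 to 17.1 CPM. Mat1a had 595 CPM in ΔEGFR CCl4 replicate 3, against 916 to 946 CPM. Dbt had 79.0 CPM in ΔEGFR CCl4 replicate 4, against 42.7 to 47.2 CPM. Uroc1 had 285 CPM in WT oil replicate 1, against 549 to 582 CPM, and Gcsh had 42.0 CPM in the same library, against 67.7 to 71.1 CPM. The cause of these values was not tested.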

How the results depend on the processing

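With CCl4 in ΔEGFR, where 15 enzyme genes were called, the count was 9 without a scaling factor, 6 with limma on log2(TPM + 1) and 6 on log2(TPM + 0.1), 1 with the other-cell score and 25 with depth range as a covariate, 0 in the upper depth range alone, and 1 to 24 on leaving out 1 library. With CCl4 in WT, where 25 were called, it was 10 in a fit of only the groups compared, 15 with limma at either pseudocount, 10 with the other-cell score, 0 in the lower depth range alone, and 9 to 31 on leaving out 1 library. The cause of these shifts was not tested, beyond the smaller number of libraries in the fits that leave some out. The other settings gave 12 to 22 in ΔEGFR and 19 to 31 in WT, within 1.5 times the reported counts, and no called gene changed sign.

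Over all genes ΔEGFR called 746, beside 2410 with DESeq2, 1180 without a scaling factor, 470 without a low-count filter, 1286 in a fit of only the groups compared, 2271 and 2285 with limma, 72 with the other-cell score, 1643 with depth range, 96 in the upper depth range, and 75 to 2145 on leaving out 1 library. WT called 2250, beside 3622 with DESeq2, 1457 without a filter, 533 in a fit of only the groups compared, 820 with the other-cell score, 0 in the lower depth range, 5932 without both ends of the other-cell score in oil, and 575 to 5111 on leaving out 1 library. The 3 comparisons that involve genotype called 0 enzyme genes in every setting. Over all genes they called 365 in oil within the upper depth range, which sets ΔEGFR against WT oil replicate 1 alone, 2 in CCl4 with DESeq2, and for the interaction 2 with DESeq2 and 1 with limma on log2(TPM + 1).

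No paired analysis was possible because the labels give neither an animal nor a shared number to libraries of different groups. Depth was at least 390.0 expected counts for each enzyme gene in each library, the lowest being Sdsl.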
